A study of Homo sapiens with 2 samples.

Results

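The genes described here are CIPC, which encodes a partner and inhibitor of the CLOCK protein, and 9 core genes of the circadian clock: CLOCK, ARNTL, PER1, PER2, PER3, CRY1, CRY2, NR1D1 and NR1D2. They were taken by symbol, and all 10 were found among 56690 gene symbols in the deposited count table. The set was chosen by the read counts of the vector control set against those of PRMT5 overexpression, so every value of that contrast is given as a description, with no test. The RNA-seq libraries were made from polyadenylated RNA of Tu212, an epithelial-derived line from a squamous carcinoma of the head and neck. In 1 culture the cells received a pEZ plasmid encoding PRMT5 for 48 h (genotype PRMT5 overexpression), and in the other they received the pEZ vector alone for the same time (genotype control, called vector control). The sources used here do not say whether either culture was a clone or a pool, or whether its clock had been synchronised before harvest.

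Each group has a single library, so no difference below has a replicate check, and each is a difference between these libraries. The vector control library held 14119997 reads on genes and the PRMT5 overexpression library 19908258. Levels are given as CPM, the reads of a gene scaled to the size of its library, after TMM scaling. The log2 ratio sets PRMT5 overexpression over vector control, so that a gene lower with PRMT5 has a value below 0. Intervals are exact 95% intervals and cover counting error only. PRMT5 itself, the arginine methyltransferase that was overexpressed, was at 144 CPM with the vector and 295 CPM with PRMT5, a log2 ratio of 1.04 (0.96 to 1.11). Reads of the plasmid and of the cell's own PRMT5 gene cannot be told apart in these counts.

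The clock is a feedback loop of transcription. CLOCK and ARNTL (also called BMAL1) pair and activate genes through the E-box, a short promoter sequence, and among these genes are those for the PER and CRY proteins, which return to the nucleus and repress the pair. NR1D1 and NR1D2 (REV-ERB alpha and beta) form another loop by repressing ARNTL through elements that the ROR receptors also bind, and CIPC is a further inhibitor that binds CLOCK.

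Promoter windows from RefSeq (GRCh38.p14), which run from 250 bases before to 50 bases after an annotated start, were found for all 10 genes, with 15 windows in all because some genes have more than 1 start. ARNTL was matched under its current symbol, BMAL1. The E-box CACGTG reads the same on both strands. It was present in 3 of these 15 windows, those of CIPC, PER1 and NR1D2, and in 7.26% of all 35116 windows of that length. Stretches of 30 bases around each E-box are shown because this is the sequence through which the CLOCK and ARNTL pair acts. They are written 5′ to 3′ on the strand of the gene, with the E-box in capitals.
CIPC, chr14:77098178-77098207, plus strand: tccgagtcgggtCACGTGgctggcgaaagc
PER1, chr17:8152560-8152589, minus strand: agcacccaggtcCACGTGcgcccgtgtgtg
NR1D2, chr3:23945954-23945983, plus strand: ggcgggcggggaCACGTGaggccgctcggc
NR1D2, chr3:23946004-23946033, plus strand: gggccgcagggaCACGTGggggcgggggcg
The E-box of CIPC began 68 bases before the RefSeq start. That position lies inside the gene as GENCODE release 29 and the deposited table place it, since there the gene begins at 77098097. The stretches of PER1 and NR1D2 also lie inside their genes there. In 12 of the 15 windows, the first 15 bases from the start were in a GENCODE release 29 transcript of the gene. Windows of ARNTL, PER2 and PER3 were the exceptions.

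The variant E'-box CACGTT, searched on both strands and therefore also as AACGTG, was present in 5 windows, 1 each for CLOCK, PER2, CRY1, CRY2 and NR1D1, and in 5.34% of all windows. These stretches are shown for comparison with the E-boxes above, with the variant in capitals as read on the strand of the gene.
CLOCK, chr4:55546102-55546131, minus strand: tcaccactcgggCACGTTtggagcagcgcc
PER2, chr2:238288790-238288819, minus strand: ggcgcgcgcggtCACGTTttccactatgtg
CRY1, chr12:107093621-107093650, minus strand: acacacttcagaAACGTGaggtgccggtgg
CRY2, chr11:45847275-45847304, plus strand: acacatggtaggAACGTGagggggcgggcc
NR1D1, chr17:40100740-40100769, minus strand: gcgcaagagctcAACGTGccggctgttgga
The D-box, a binding sequence of DBP, TEF and NFIL3, was searched on both strands as TTATGTAA and TTACGTAA. The first form was present in a window of PER3 and of NR1D2 and in 0.886% of all windows, and the second in the window of PER2 and in 0.125% of all windows. The core of the ROR element was searched on both strands as TAGGTCA and TGGGTCA, which were present in 1.85% and 3.92% of all windows. TAGGTCA was present in windows of ARNTL and CRY2, and TGGGTCA, in its reverse complement, in windows of CLOCK and NR1D2. The ARNTL stretch is shown because this element is the known route from NR1D1 and NR1D2 to ARNTL.
ARNTL, chr11:13277809-13277838, plus strand: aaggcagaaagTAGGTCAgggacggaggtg
None of the 16 matches shared bases with another. A match is a run of letters and not a site shown to be bound.

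CIPC stood apart from the other 9 genes. The vector control held 461 CIPC reads and the deeper PRMT5 overexpression library 95. These were 32.1 CPM (29.2 to 35.1) and 4.86 CPM (3.93 to 5.94), so CIPC was 6.53-fold lower with PRMT5 overexpression. Its log2 ratio was -2.71 (-3.06 to -2.40). The deposited FPKM values, which divide by gene length as well as by depth, were 4.82 and 0.704. CIPC (ENSG00000198894) is on chromosome 14, plus strand, between 77098097 and 77117287 in GRCh38. In bulk RNA, fewer cells carrying the transcript and less transcript per cell cannot be told apart.

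**Figure D1:**
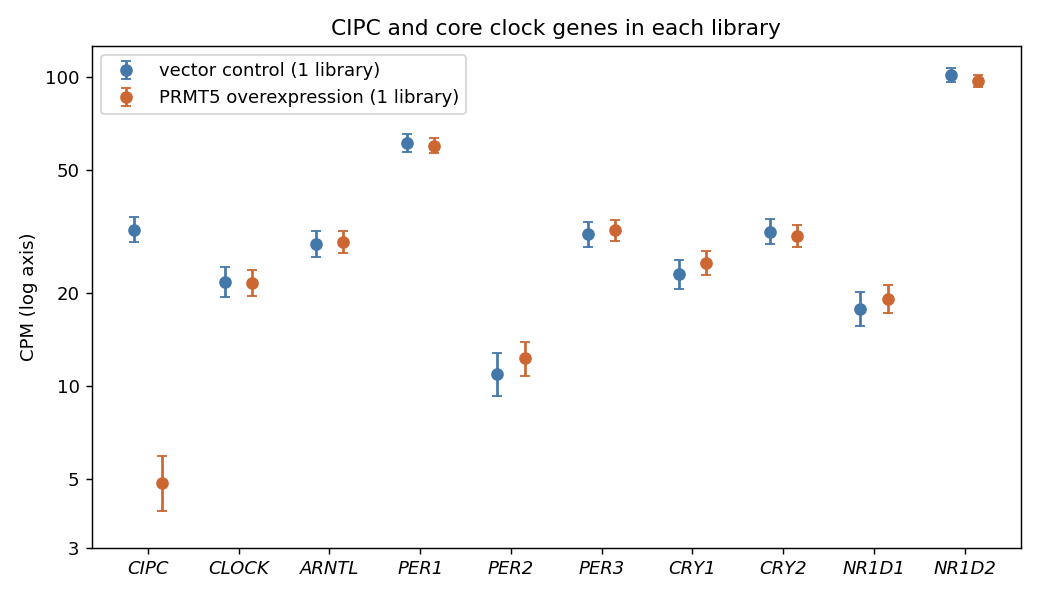
Level of each of the 10 genes in CPM (log axis) in the vector control library (blue) and the PRMT5 overexpression library (orange), with bars for the exact 95% counting interval. CIPC is at 32.1 against 4.86 CPM, and the bars leave out culture-to-culture variation.

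All 10 genes had 10 or more reads in at least 1 library, the floor used for every gene. CIPC was the single member at least 2-fold apart, and also the single member at least 1.5-fold apart. Over the 17777 genes past the floor, 4.77% were 2-fold apart and 12.7% were 1.5-fold apart. Among the 13282 of them that averaged at least 50 reads over the libraries, as all 10 members did, 1.58% and 5.16% were. CIPC was among 319 genes at least 2-fold lower (1.79% of those past the floor), and 34 of the 17777 genes, CIPC included, had a log2 ratio at or below its own. Among 2628 genes with mean reads within 1.5-fold of those of CIPC, 0.913% were at least 2-fold lower and 3, CIPC included, were as low. The median log2 ratio of the 10 members was 0.00, beside 0.03 over all genes past the floor.

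**Figure D2:**
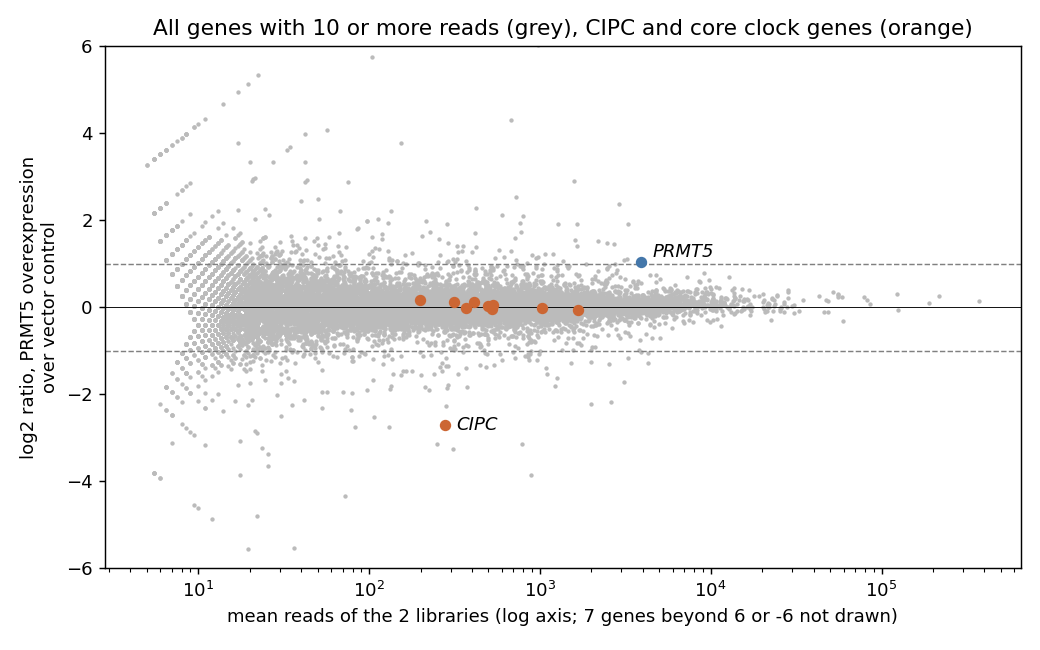
Log2 ratio of PRMT5 overexpression over vector control against mean reads (log axis) for the 17777 genes past the floor (grey, with 7 genes beyond the axis left out), with dashed lines at 2-fold. CIPC (orange, labelled) lies at -2.71, the other 9 clock genes (orange) lie near 0, and PRMT5 (blue) lies at 1.04.

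Part of the CIPC gene is shared with its neighbour on the same strand. TMEM63C shares 275 bases of exon with CIPC, 5.19% of the merged exon length of CIPC, and the readthrough gene AC007375.1, with 3 and 4 reads, shares 239 bases. Of 444 stretches of 50 bases from the longest CIPC transcript, 10.1% also occur in transcripts of other genes, most often TMEM63C. TMEM63C had 260 reads with the vector and 309 with PRMT5, a log2 ratio of -0.19 (-0.44 to 0.05). At the vector control level, the PRMT5 overexpression library would have held 627 CIPC reads, 532 more than it did. TMEM63C, at its own vector control level, would have held 354 reads there, against the 309 counted. CIPC and TMEM63C summed had 721 and 404 reads, for a log2 ratio of -1.28, still at least 2-fold lower.

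The genes around CIPC did not share its ratio. Within 500 kb on either side, 16 other genes passed the floor, with a median log2 ratio of 0.14. Of these, 12 had a mean of 50 or more reads, and they ranged from -0.19 for TMEM63C to 0.49 for the antisense gene AC007686.3. The nearest protein-coding gene upstream, IRF2BPL, had 1456 and 2173 reads, for a log2 ratio of 0.13 (0.04 to 0.23). POMT2, the nearest past TMEM63C on the downstream side, had 364 and 513 reads, for a log2 ratio of 0.05 (-0.14 to 0.25). The pair of neighbours beyond 2-fold, NOXRED1 at -1.39 (-3.46 to 0.06) and the pseudogene RPL22P2 at 1.63 (0.06 to 4.31), had 11 and 5 reads and 3 and 15 reads.

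**Figure D3:**
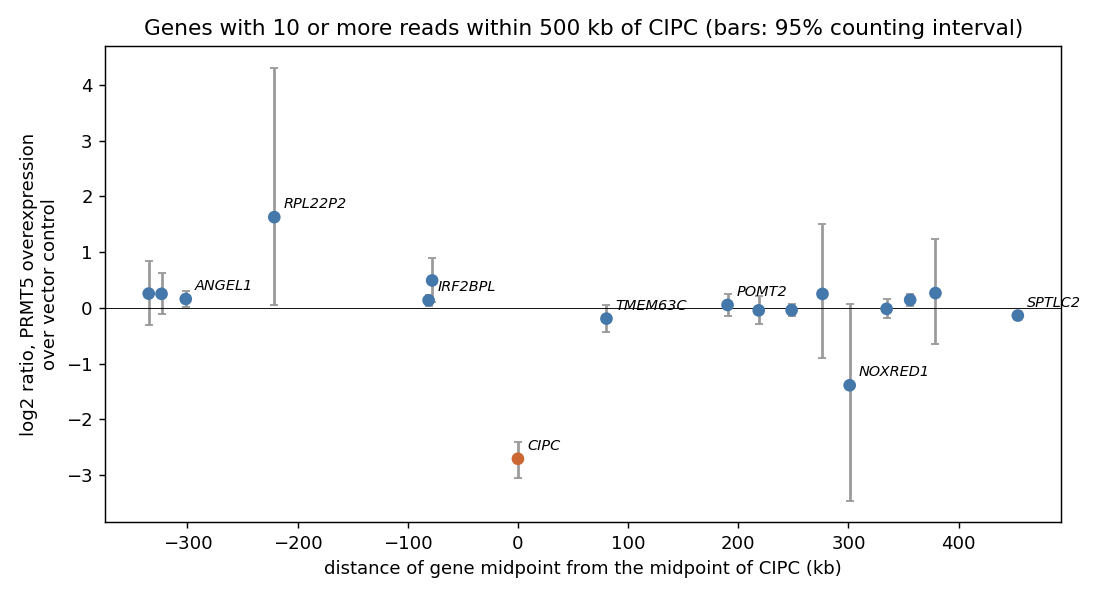
Log2 ratio of PRMT5 overexpression over vector control, with 95% counting intervals, for genes past the floor within 500 kb of CIPC, against the distance between gene midpoints in kb. CIPC (orange) lies at -2.71, while the 12 well-read neighbours lie between -0.19 and 0.49, and the wide intervals of NOXRED1 and RPL22P2 belong to genes with few reads.

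CLOCK and ARNTL, the activators that form the positive arm of the loop, differed little between the libraries. CLOCK, a bHLH-PAS protein and the partner of CIPC, had 313 and 422 reads, or 21.8 CPM (19.4 to 24.3) with the vector and 21.6 CPM (19.6 to 23.7) with PRMT5. Its log2 ratio was -0.01 (-0.23 to 0.20). ARNTL, the other subunit of the heterodimer, had 415 and 572 reads, or 28.9 CPM (26.2 to 31.8) and 29.3 CPM (26.9 to 31.8). The log2 ratio of ARNTL was 0.02 (-0.17 to 0.21). CLOCK (ENSG00000134852) is on chromosome 4, minus strand, between 55427903 and 55547138, and ARNTL (ENSG00000133794) on chromosome 11, plus strand, between 13276652 and 13387266. Counted against its partner within the same library, which needs no scaling, CIPC had 1.47 reads for each CLOCK read in the vector control and 0.225 in PRMT5 overexpression.

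The PER genes, which encode repressors that bind CRY proteins, lay within the counting error of an equal level. PER1 had 879 and 1172 reads, or 61.1 CPM (57.2 to 65.3) with the vector and 59.9 CPM (56.6 to 63.5) with PRMT5, and a log2 ratio of -0.03 (-0.16 to 0.10). PER2 had the fewest reads of the members in the vector control, 157, with 240 in PRMT5 overexpression, or 10.9 CPM (9.28 to 12.8) and 12.3 CPM (10.8 to 13.9). Its log2 ratio, 0.17 (-0.13 to 0.47), was the farthest from 0 among the 9 genes other than CIPC. PER3, the member whose loss affects the loop least in mice, had 445 and 624 reads, or 30.9 CPM (28.1 to 34.0) and 31.9 CPM (29.5 to 34.5), and a log2 ratio of 0.04 (-0.13 to 0.22). PER1 (ENSG00000179094) is on chromosome 17, minus strand, between 8140472 and 8156506, PER2 (ENSG00000132326) on chromosome 2, minus strand, between 238244038 and 238290102 and PER3 (ENSG00000049246) on chromosome 1, plus strand, between 7784320 and 7845177. Of 634 stretches of the longest PER2 transcript, 1.26% occur in transcripts of other genes.

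The cryptochromes, the repressors that bind the CLOCK and ARNTL pair directly, also lay within the counting error of an equal level. CRY1 had 330 and 490 reads, or 23.0 CPM (20.5 to 25.6) with the vector and 25.1 CPM (22.9 to 27.4) with PRMT5, with a log2 ratio of 0.13 (-0.08 to 0.33). CRY2 had 454 and 598 reads, or 31.6 CPM (28.7 to 34.6) and 30.6 CPM (28.2 to 33.1), with a log2 ratio of -0.05 (-0.22 to 0.13). CRY1 (ENSG00000008405) is on chromosome 12, minus strand, between 106991364 and 107093829, and CRY2 (ENSG00000121671) on chromosome 11, plus strand, between 45847118 and 45883248. The PER genes together had 1.89 reads for each CRY1 or CRY2 read in the vector control and 1.87 in PRMT5 overexpression. This ratio of the families was thus nearly the same in these libraries.

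The nuclear receptors of the second loop showed no difference beyond counting error. NR1D1 had 256 and 375 reads, or 17.8 CPM (15.7 to 20.1) with the vector and 19.2 CPM (17.3 to 21.2) with PRMT5. Its log2 ratio was 0.11 (-0.13 to 0.34). NR1D2, which had the most reads of the 10 genes, had 1458 and 1898, or 101 CPM (96.3 to 107) and 97.1 CPM (92.8 to 102). Its log2 ratio was -0.06 (-0.16 to 0.04). NR1D1 (ENSG00000126368) is on chromosome 17, minus strand, between 40092787 and 40100725, and NR1D2 (ENSG00000174738) on chromosome 3, plus strand, between 23945260 and 23980618.

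NR1D1 overlaps THRA, the thyroid hormone receptor alpha gene on the opposite strand, over 263 exon bases, 9.49% of its merged exon length. The sources used here do not say whether strand was kept, so reads on those bases could belong to either gene. THRA had 569 and 838 reads, for a log2 ratio of 0.12 (-0.04 to 0.27), and NR1D1 had 0.450 reads for each THRA read in the vector control and 0.447 in PRMT5 overexpression. CLOCK shares 76 exon bases with TMEM165 on the opposite strand, whose log2 ratio was 0.10 (-0.05 to 0.25), and 27 with an antisense gene, AC024243.1, of 1 and 11 reads. The other partners that share exon bases with members had fewer than 10 reads in each library.

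**Figure D4:**
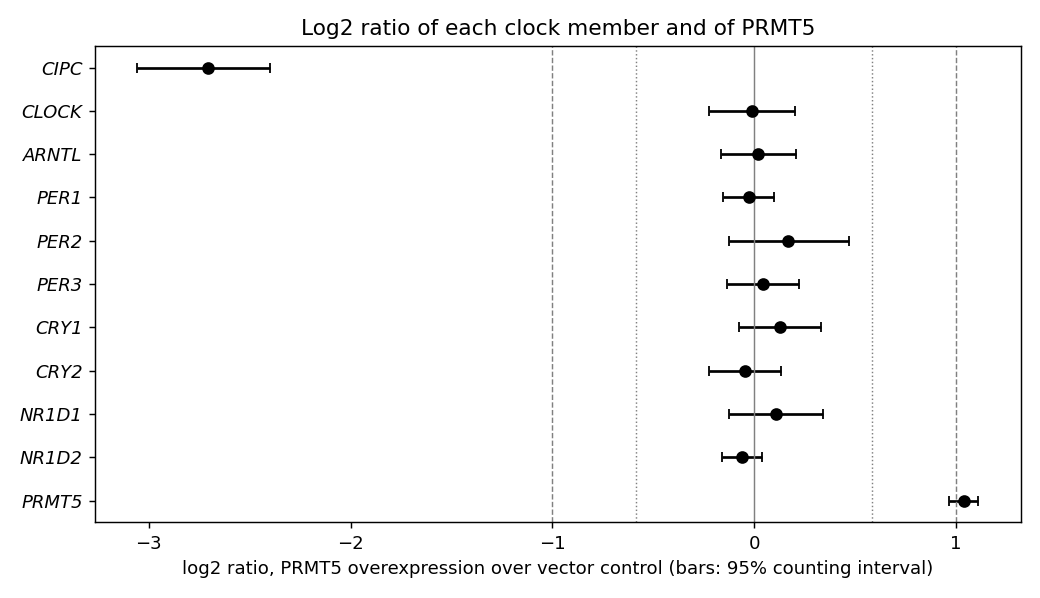
Log2 ratio of PRMT5 overexpression over vector control for each of the 10 genes and PRMT5, with exact 95% counting intervals, a solid line at 0, dotted lines at 1.5-fold and dashed lines at 2-fold. The intervals of the 9 genes other than CIPC all include 0 and stay inside the 1.5-fold lines, and that of CIPC runs from -3.06 to -2.40.

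Across the 9 genes other than CIPC, the log2 ratios ran from -0.06 for NR1D2 to 0.17 for PER2, with a median of 0.02. The bound farthest from 0 in any of their intervals was 0.47, that of PER2, which is under 1.5-fold (0.58 on the log2 scale). The widths of these intervals differ with the reads of each gene, from NR1D2, the best read, to PER2, the least read. Culture-to-culture variation, which the intervals leave out, is not known. Summed, the 9 genes had 327 CPM in both libraries. CIPC had 0.0979 reads for each read of the other 9 in the vector control and 0.0149 in PRMT5 overexpression.

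To order the 10 genes, levels were taken per length, as CPM per kb of merged exons in GENCODE release 29. The ratios of reads between genes given above are not corrected for length. In the vector control, NR1D2 was the highest at 17.4 CPM per kb, followed by PER1 at 8.73, NR1D1 at 6.42, CIPC at 6.05, CRY2 at 5.09, CRY1 at 4.53, ARNTL at 4.29, PER3 at 3.82, CLOCK at 1.85 and PER2 at 1.59. The counting intervals of neighbours in that order overlapped from NR1D1 through PER3 and for CLOCK with PER2, while NR1D2, PER1 and the step from PER3 to CLOCK were set apart. In PRMT5 overexpression CIPC was the lowest of the 10, at 0.917 CPM per kb (0.742 to 1.12), below PER2 at 1.79 and CLOCK at 1.84. The order depends on the lengths used: in the deposited FPKM of the vector control, CIPC (4.82) stood above PER1 (4.16), and CLOCK (1.23) below PER2 (1.52).

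Other genes of the clock were read from lists of 47 genes, of which 46 were in the table and 41 passed the floor. None was 2-fold apart, where 4.77% of all genes past the floor were. That floor lets in many genes with few reads, while most of the 41 averaged at least 50 over the libraries. At that depth 1.58% of 13282 genes were 2-fold apart, so finding none does not set the clock genes apart. RORA was at least 1.5-fold lower and HDAC3 at least 1.5-fold higher, where 5.06% and 7.63% of all genes past the floor were. At the higher depth these shares were 2.24% and 2.92%. The median log2 ratio of the 41 was 0.03, as it was over all genes past the floor.

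**Figure D5:**
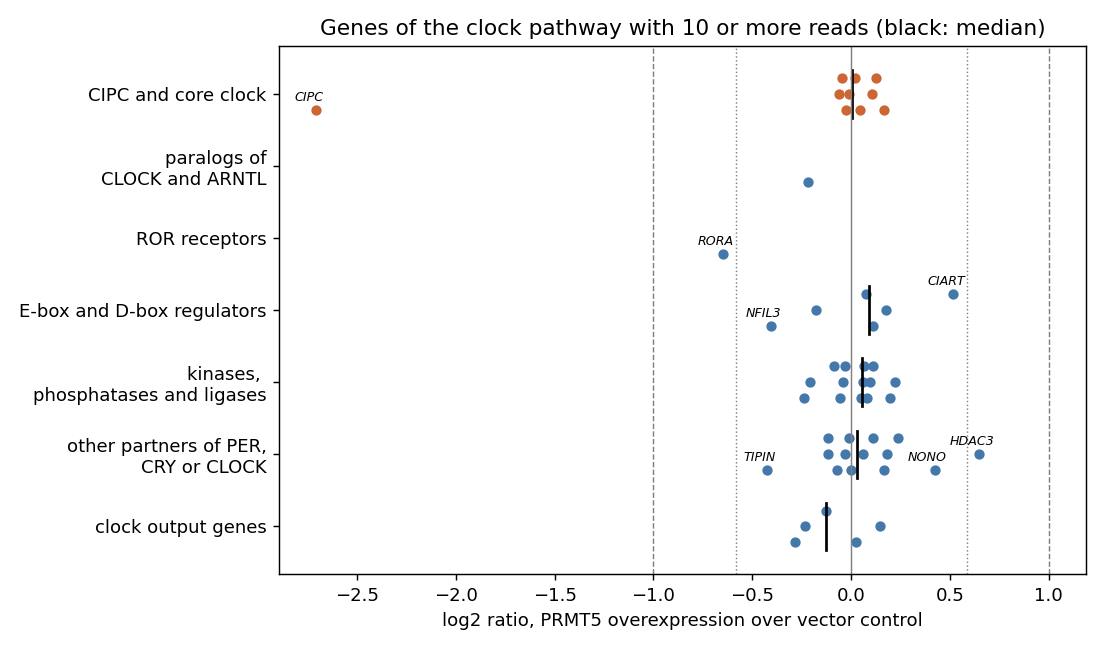
Log2 ratio of PRMT5 overexpression over vector control for the 10 genes (orange) and the 41 other clock genes past the floor (blue), by list, with black lines for medians of lists with more than 2 genes, dotted lines at 1.5-fold and dashed lines at 2-fold. CIPC alone lies beyond 2-fold, and RORA at -0.65 and HDAC3 at 0.65 lie just past 1.5-fold.

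Among the paralogs of the activators, ARNTL2, which can take the place of ARNTL, had 2338 and 2728 reads, for a log2 ratio of -0.22 (-0.30 to -0.14). It was at 23.3 CPM per kb in the vector control, where ARNTL was at 4.29. NPAS2, the paralog of CLOCK, was below the floor with 3 and 5 reads. Among the ROR receptors, which activate ARNTL, RORA had 57 and 49 reads, for a log2 ratio of -0.65 (-1.24 to -0.09), and -0.64 when summed with the gene RORA-AS1 that shares its exons. RORB, with 4 and 3 reads, was below the floor.

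Regulators that act on E-boxes and D-boxes gave mixed values, with none 1.5-fold apart on its own reads. BHLHE40, an E-box repressor also called DEC1, had 2023 and 2429 reads, for a log2 ratio of -0.18 (-0.27 to -0.09). Its paralog BHLHE41 had 22 and 34 reads, for a log2 ratio of 0.18 (-0.63 to 1.03), which became -0.59, past 1.5-fold lower, when its reads were summed with those of SSPN. SSPN, on the opposite strand, shares 162 exon bases with BHLHE41, 4.1% of its merged exon length. It gave 55 and 35 of the summed reads, so the sum mostly follows SSPN. NFIL3, the D-box repressor, had 908 and 932 reads, for a log2 ratio of -0.41 (-0.54 to -0.27).

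The D-box activators DBP and TEF were near 0. DBP, an E-box gene in common use as a readout of CLOCK and ARNTL activity, had 659 and 943 reads, for a log2 ratio of 0.07 (-0.07 to 0.22). TEF had 977 and 1433 reads, for a log2 ratio of 0.11 (-0.01 to 0.23), and HLF, the third of this family, was below the floor with 6 reads in each library. CIART, another repressor of the CLOCK and ARNTL pair, had 9 and 18 reads, for a log2 ratio of 0.52 (-0.67 to 1.89), an interval too wide to place it.

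The kinases, phosphatases and ligases that set the stability of PER and CRY proteins ranged from -0.24 to 0.22 over 14 genes past the floor, with a median of 0.05. The deubiquitinase gene USP7 was at 0.05. PRKAA2, with 5 and 0 reads, was below the floor. Among 14 other partners of PER, CRY or CLOCK the median was 0.03, with TIMELESS at 0.06 and the histone demethylase gene KDM5A at 0.00. HDAC3, the deacetylase that NR1D1 and NR1D2 recruit through NCOR1, had 1294 and 2757 reads, for a log2 ratio of 0.65 (0.55 to 0.74), while NCOR1 itself was at -0.07 (-0.14 to 0.00). Of the 5 clock output genes, 3 were below 0, with a median of -0.13. CDKN1A, the gene for the cell cycle inhibitor p21, was at -0.13, and NAMPT, which makes a precursor of NAD, at -0.23.

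With 1 ratio per gene, likeness to CIPC is no more than a like ratio at a like depth. Among 2315 other protein-coding genes with mean reads within 1.5-fold of those of CIPC, the 3 with the nearest log2 ratio were MXD1 at -2.27 (-2.58 to -1.99), ZNF264 at -3.16 (-3.58 to -2.80) and FAM110A at -3.27 (-3.66 to -2.94). MXD1 had 439 and 123 reads, ZNF264 433 and 65, and FAM110A 547 and 76. The nearest of them, MXD1, differed from CIPC by 0.44 on the log2 scale.

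Markers of cell types were read in both libraries. All 8 epithelial and squamous markers were well read and summed to 9358 CPM with the vector and 10446 CPM with PRMT5. The 6 fibroblast markers summed to 5.63 CPM and 2.05 CPM, with 3 of the 4 past the floor at least 2-fold lower and DCN at 12 and 0 reads. All 6 together had 81 and 40 reads. Over all genes past the floor, 1.79% were at least 2-fold lower. Among those averaging at least 50 reads, a depth that none of these 3 markers reached, 0.745% were. The 5 leukocyte markers summed to 21.4 and 17.0 CPM, of which CD68 gave 19.9 and 16.4, with PTPRC at 0 reads in the vector control and CD3E at 0 in the other. The log2 ratio of CD68 was -0.28, and 0.34 when summed with the genes that share its exons. Of the 2 leukocyte markers past the floor, 1 was at least 2-fold lower, beside the same 1.79% of all genes past the floor. This was ITGAM, with only 12 and 3 reads and a value of -2.07 (-4.91 to -0.55). The 4 endothelial markers summed to 5.91 and 4.50 CPM, with CDH5 at 0 in both libraries and PECAM1 at 0 in PRMT5 overexpression. Whether reads of the fibroblast, leukocyte and endothelial markers came from such cells was not tested, nor was any part of them in the CIPC difference.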

How the data were processed

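The table deposited by the authors gave raw read counts per gene and FPKM values for 1 library per group. The submitters' processing notes name, without roles, edgeR, StringTie 1.3.4b, HISAT2 2.1.0 and CASAVA 1.8, and the builds hg38 and GRCh38. Counts were used as deposited. The authors' FPKM, checked in 11478 well-read genes, used the same length in both libraries within 1% for 100% of them. Rows were summed by symbol, and each of the 10 genes stood on a single row whose position was that of GENCODE release 29.

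Counts were scaled by TMM over the whole table (edgeR 4.0.16, R 4.3.3; factors 1.02 for vector control and 0.982 for PRMT5 overexpression), and log2 ratios used a prior count of 1. A gene passed the floor with 10 reads or more in either library, and no p-value was computed, as each group has 1 library. Intervals of ratios are Clopper-Pearson and those of levels exact Poisson, at 95%; reads are not independent molecules, so they cover counting error only. Exon sharing was read from GENCODE release 29 on either strand. The calculation of ratios and ratio intervals was run on simulated Poisson counts. That simulation had no TMM scaling and no variation between cultures, so it checks neither.

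The members and lists were chosen with earlier results of these data known. The lists hold paralogs, ROR receptors, E-box and D-box regulators, enzymes, partners and output genes of the clock, and epithelial, fibroblast, leukocyte and endothelial markers. Named genes are the members, PRMT5, genes sharing exons with members, list genes past 1.5-fold or nearest each median, the first 3 lists in full, and the 3 genes nearest CIPC; the neighbours of CIPC, NCOR1, PRKAA2, USP2, ITGAM and the markers at 0 or giving most of a sum were named after their values were seen. Some genes that this rule names are not reported here. Other tools were matplotlib 3.10.9, scipy 1.17.1, pandas 2.3.3 and numpy 2.4.6 under Python 3.11.15. Alternatives were DESeq2 1.42.0 size factors, total counts, TMM over genes past the floor, other prior counts, other floors, FPKM, the largest row per symbol, protein-coding genes only and sums over exon-sharing genes. No per-sample column was left unused.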

Additional observations from a re-analysis of the deposited data

How the results depend on the processing

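CIPC was at least 2-fold lower in every setting run, from -2.76 with no TMM factor to -1.28 when summed with TMEM63C, which dilutes its ratio by construction. With deposited FPKM and a pseudocount of 1, CIPC was -1.77 and PRMT5 was 0.93. The pseudocount shrinks ratios, and FPKM also carry no TMM factor. With total counts and no TMM factor, PRMT5 was 0.98, just under 2-fold. TMM over genes past the floor was chosen after seeing the data. CIPC was the single member past 2-fold and past 1.5-fold under every alternative. The other 9 genes stayed within their counting intervals in all 72 recalculated values, although the sign changed for 3 of them: ARNTL and PER3 with no TMM factor (-0.03 and -0.01) and with FPKM (-0.02 and -0.01), ARNTL with TMM over genes past the floor (0.00), and CLOCK summed with its exon-sharing genes (0.07). The median of the 10 members ran from -0.05 to 0.03 and that of the other clock genes from -0.03 to 0.03. The median over all genes was -0.03 with no TMM factor against 0.03. Of 17777 genes, 848 (4.77%) were 2-fold apart, against 494 (2.78%) with a prior count of 5 and 129 (0.726%) with FPKM. With no floor 5005 of 28403 (17.6%) were. With a floor of 50 reads it was 251 of 13622 (1.84%), and among protein-coding genes 444 of 13483 (3.29%). At 1.5-fold, 2257 (12.7%) became 549 (3.09%) with FPKM and 9291 (32.7%) with no floor. It became 798 (5.86%) with that higher floor and 1180 (8.75%) among protein-coding genes. No paired analysis was possible because there was a single library on each side. Among the other clock genes past the floor, depth limits CIART, BHLHE41, USP2 and RORA most, each with fewer than 60 reads per library.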

Other observations

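Genes with an E-box in a promoter window were read as a group across the table. Of those past the floor, 1394 had CACGTG in a RefSeq window and a median log2 ratio of 0.02, beside a median of 0.02 for the 9747 genes with a window and no such match. The share at least 2-fold lower was 1.29% in both groups, CIPC being 1 of the genes with an E-box. In either direction, 2.51% of genes with the E-box and 3.07% of those without were at least 2-fold apart. Any part of the E-box in the CIPC difference was not tested. For the variant E'-box CACGTT, 848 genes had a match and a median log2 ratio of 0.01, beside 0.02 for the 10293 genes without.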
